A study of Mus musculus with 10 samples.

Results

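Dendritic cell marker genes were followed through sorted mouse macrophages, to see which of them these cells carried and how their levels differed between groups. The set was 6 genes named by symbol, Flt3, Zbtb46, Itgax, Irf4, Batf3 and Ccr7, of which 5 have a row among the 12535 genes of the deposited table. Ccr7, the chemokine receptor that guides mature dendritic cells to lymph nodes, was not analysed here. Levels are FPKM, fragments scaled to gene length and to sequencing depth, so they can be compared between genes per length.

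RNA was sequenced in 10 libraries of cells sorted as CD45+, CD11b+ and F4/80+, which are surface proteins of leukocytes, myeloid cells and macrophages. The cKO-labelled tumour-associated macrophages (TAM, n = 3) came from C57/BL6 Ahr fl/fl Lys M mice, in which Cre recombinase made from the lysozyme locus is meant to delete the floxed Ahr gene, encoding the aryl hydrocarbon receptor, in myeloid cells at large. Control TAM (n = 3), whose titles read WT, came from C57/BL6 Ahr fl/fl mice. Both TAM groups were taken from pancreatic tumours 14 days after orthotopic implantation of 1 KPC organoid line, MT4, a model of pancreatic ductal adenocarcinoma. Resident macrophages (n = 4) came from the pancreas of healthy C57/BL6 WT mice, so tumour and floxed genotype cannot be told apart between control TAM and resident cells. The labels give neither age nor sex, nor which of the 2 RNA extraction kits served which library. The design text counts mice, but nothing in the labels says whether a library is 1 mouse, so the p-values measure the spread between these libraries, which may be technical.

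Conventional dendritic cells (cDC) arise from precursors that need the receptor tyrosine kinase FLT3. They are divided into cDC1, which need the transcription factors IRF8 and BATF3 and cross-present antigen to CD8 T cells, and cDC2, many of which need IRF4. ZBTB46 is a zinc finger transcriptional repressor that marks the cDC lineage, and Itgax encodes CD11c, the integrin subunit by which dendritic cells are commonly gated. None of these genes is exclusive to dendritic cells: tissue macrophages can make CD11c, and IRF4 serves in alternatively activated macrophages and in B and plasma cells.

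Recovered depth was 10312741 to 26454678 reads per library. Adgre1, which encodes the macrophage marker F4/80, was at 497 ± 7.72 FPKM in cKO-labelled TAM, 590 ± 2.78 in control TAM and 706 ± 14.9 in resident cells (SD), and all 13 macrophage identity genes had a row. Adgre1 and some others of these genes encode gate proteins of the sort, so their levels do not measure purity. Ahr stood at 10.2, 11.2 and 9.65 FPKM in the cKO-labelled libraries, against 7.11, 6.91 and 7.51 in control TAM. A gene-level value also counts exons outside the floxed part, so it does not check the deletion, and that group is called by its label throughout. Differences were tested with limma on log2(FPKM + 1) over 11127 genes in 1 model of all libraries, with Benjamini-Hochberg adjustment and a threshold of 0.05.

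In control TAM against resident macrophages, Itgax rose, Zbtb46, Irf4 and Batf3 fell, and Flt3 did not pass the threshold. In cKO-labelled against control TAM, Batf3 rose 2.21 times and Zbtb46 1.42 times by the ratio of means, and the other 3 genes did not pass. The 4 of 5 members called between control TAM and resident cells stand beside 77.1% of all genes tested (39.0% higher and 38.1% lower), and the 2 of 5 called between the TAM groups, both higher, beside 39.6% (20.5% higher and 19.1% lower). Both counts are near the background, so they are no result about these genes as a set. In cKO-labelled TAM against resident cells Itgax rose and Zbtb46, Irf4 and Batf3 fell, beside 77.4% of all genes (40.2% higher and 37.2% lower). Groups did not overlap in 4 of 5 members between control TAM and resident cells, beside 73.9% of all genes, in 5 of 5 between cKO-labelled TAM and resident cells, beside 75.5%, and in 2 of 5 between the TAM groups, beside 51.4%. The resident libraries are shared by the last comparison and the first.

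**Figure D1:**
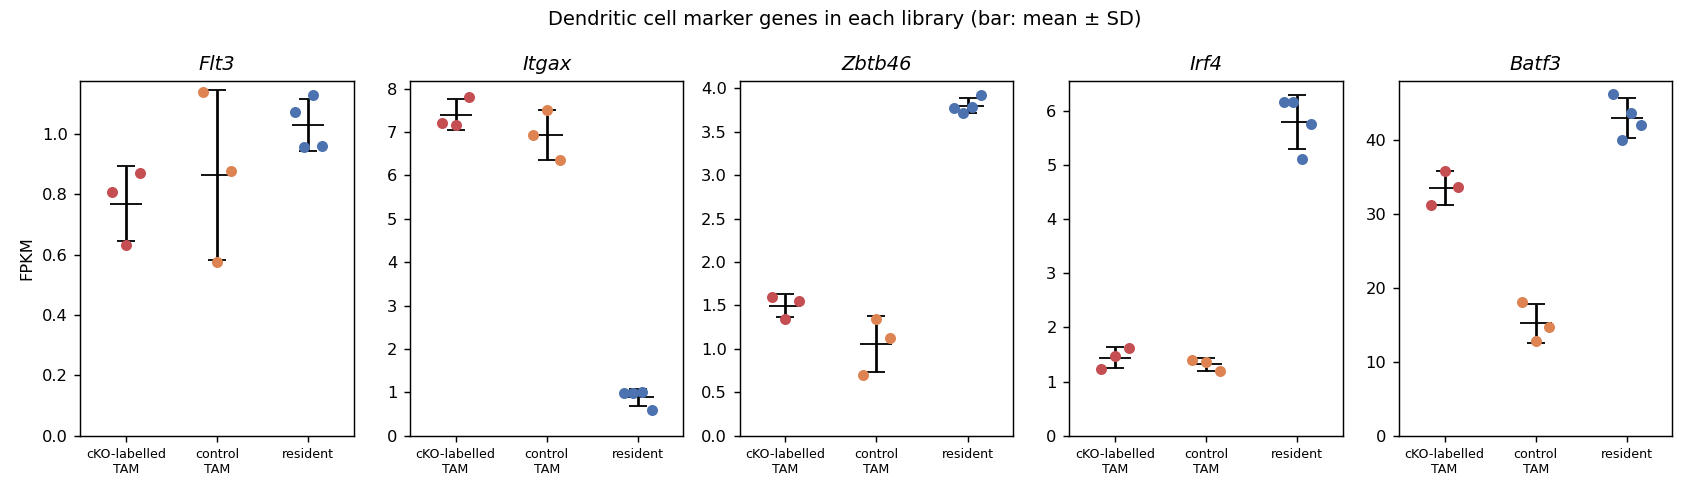
FPKM of the 5 measured genes in each library (points), with the mean and SD of each group (bars). Itgax is about 1 in resident cells and over 6 in both TAM groups, and Batf3 in cKO-labelled TAM lies between control TAM and resident cells.

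For the genes with the largest changes, Itgax, Irf4 and Batf3, the 250 bases before the RefSeq start are shown (GRCm38.p6, 5′ to 3′ in the direction of the gene). They lie at chr7:128129300-128129549 (plus strand) for Itgax, at chr13:30748983-30749232 (plus strand) for Irf4 and at chr1:191098164-191098413 (plus strand) for Batf3. Capitals mark matches, on either strand, to the core of the aryl hydrocarbon receptor element (GCGTG), an AP-1 element (TGANTCA), an interferon regulatory factor pair (2 GAAA runs in 1 direction, 2 bases apart) or an ETS core (GAGGAA).
Itgax: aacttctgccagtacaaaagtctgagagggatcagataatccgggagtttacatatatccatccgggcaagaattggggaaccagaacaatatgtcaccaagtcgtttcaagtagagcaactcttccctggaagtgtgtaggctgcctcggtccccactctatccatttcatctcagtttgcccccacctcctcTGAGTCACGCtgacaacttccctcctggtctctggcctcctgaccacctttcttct
Irf4: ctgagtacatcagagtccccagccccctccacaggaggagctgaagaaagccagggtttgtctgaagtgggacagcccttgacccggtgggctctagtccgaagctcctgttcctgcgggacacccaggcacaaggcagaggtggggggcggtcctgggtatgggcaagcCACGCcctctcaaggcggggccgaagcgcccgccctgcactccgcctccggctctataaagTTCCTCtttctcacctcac
Batf3: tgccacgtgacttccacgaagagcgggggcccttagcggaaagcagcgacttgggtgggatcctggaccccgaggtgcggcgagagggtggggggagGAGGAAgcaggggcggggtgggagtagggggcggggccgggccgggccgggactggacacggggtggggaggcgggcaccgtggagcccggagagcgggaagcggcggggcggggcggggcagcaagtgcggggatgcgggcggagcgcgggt

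The Itgax window held 1 AP-1 match that overlaps 1 receptor core match by their shared letters CA. The Irf4 window held 1 receptor core match and 1 ETS match, and the Batf3 window 1 ETS match and 0 matches to the receptor core. The Batf3 window lies inside the gene as GENCODE annotates it, from 191097847, so it does not cover the bases before that start. Of 32851 windows of this length, 28.2% hold the receptor core, 6.75% the AP-1 element, 2.98% the interferon regulatory factor pair and 23.3% the ETS core. The Flt3 window held 0 matches and the Zbtb46 window 1, to AP-1. The Zbtb46 window (chr2:181424389-181424638, minus strand) lies inside the gene as GENCODE annotates it, which starts at 181459426 on that strand. It does not cover the bases before that start. A match describes letters in the window and not a bound site.

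Flt3 (ENSMUSG00000042817, GRCm38 chromosome 5, 147330741 to 147400489, minus strand, protein-coding), the receptor of the dendritic cell growth factor FLT3L, was the lowest of the 5 genes in both TAM groups. It stood at 0.807, 0.633 and 0.869 FPKM in cKO-labelled TAM, at 1.14, 0.575 and 0.876 in control TAM, and at 1.07, 0.958, 1.13 and 0.960 in resident libraries. The control TAM values spanned the whole range of the other groups, while cKO-labelled TAM lay just below the resident range. These values rest on 23 to 88 reads per library, so the spread within control TAM (58, 23 and 52 reads) came with wide counting intervals, of 0.364 to 0.863 FPKM in replicate 2 and 0.866 to 1.47 in replicate 1 (exact Poisson, 95%, counting error only). The log2 change was -0.07 ± 0.10 (SE) in cKO-labelled against control TAM (limma adjusted p = 0.646) and -0.13 ± 0.10 in control TAM against resident cells (limma adjusted p = 0.224). In cKO-labelled TAM against resident cells it was -0.20 ± 0.10 (limma adjusted p = 0.0745), a difference called lower under quantile normalization and when only those groups were fitted. Flt3l, which encodes the ligand, fell to 1.89 ± 0.127 FPKM in control TAM, against 4.04 ± 0.148 in resident cells (log2 change -0.80). It rose in cKO-labelled TAM to 2.90 ± 0.860 FPKM, with libraries from 2.30 to 3.89 (log2 change 0.41, limma adjusted p = 0.0101).

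Itgax (ENSMUSG00000030789, chromosome 7, 128129547 to 128150657, plus strand, protein-coding), which encodes CD11c, was the member that rose in the tumour. Its FPKM was 7.21, 7.17 and 7.81 in cKO-labelled TAM, 6.93, 7.52 and 6.35 in control TAM, and 0.976, 0.981, 1.00 and 0.592 in resident cells. All TAM libraries lay above all resident libraries, and the TAM groups overlapped. Mean FPKM in control TAM was 7.81 times that of resident cells, with a log2 change of 2.08 ± 0.09 (limma adjusted p = 3.45e-12), and cKO-labelled TAM stood at 8.34 times (2.16 ± 0.09). Of the 11127 genes tested, 9.98% were called higher by at least 2-fold in control TAM against resident cells. Between the TAM groups the log2 change of Itgax was 0.08 ± 0.09 (limma adjusted p = 0.512). In bulk samples such as these, a change in the number of cells of a type and a change in RNA per cell cannot be told apart.

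CD11c forms its receptor with CD18, encoded by Itgb2, which also pairs with CD11b (Itgam) and CD11a (Itgal). These relatives rose with Itgax in the tumour: Itgb2 reached 853 ± 13.5 FPKM in control TAM, against 430 ± 15.1 in resident cells, and Itgam reached 75.9 ± 5.23, against 31.4 ± 0.995. All 3 fell in cKO-labelled against control TAM. Itgb2 fell to 645 ± 10.3 FPKM (log2 change -0.40), Itgam to 59.7 ± 3.33 (-0.34) and Itgal to 17.3 ± 1.28, against 25.5 ± 0.874 in control TAM (-0.53). Per length, Itgax was thus far below both Itgb2 and Itgam in every group. Itgam is a gate protein of the sort, so its level between groups is also bound to how the cells were chosen.

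Zbtb46 (ENSMUSG00000027583, chromosome 2, 181387762 to 181459426, minus strand, protein-coding), the cDC lineage marker, stood at 1.60, 1.35 and 1.55 FPKM in cKO-labelled TAM and at 0.702, 1.34 and 1.13 in control TAM. In resident cells it stood at 3.77, 3.72, 3.79 and 3.92, above every TAM library. The TAM groups did not overlap, but by a margin of 1.35 against 1.34 FPKM. Control TAM held 27.8% of the resident mean (log2 change -1.23 ± 0.10, limma adjusted p = 6.45e-09, and -1.91 by voom on recovered reads), and cKO-labelled TAM 39.4% (-0.94 ± 0.10). The rise in cKO-labelled against control TAM was 0.29 ± 0.10 on the log2 scale (limma adjusted p = 0.0327, and 0.00697 to 0.0638 over the other settings with all libraries of those groups). By voom on recovered reads the change was 0.57, and at a pseudocount of 0.1 it was 0.505. The call rested on control TAM replicate 1, at 48 reads and 0.518 to 0.931 FPKM (exact Poisson, 95%), without which the change was 0.16 (limma adjusted p = 0.173). The call was also lost without cKO-labelled TAM replicate 1 (0.26, limma adjusted p = 0.0961) or replicate 3 (0.28, limma adjusted p = 0.0876).

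Irf4 (ENSMUSG00000021356, chromosome 13, 30749226 to 30766976, plus strand, protein-coding), the factor of cDC2 and of alternatively activated macrophages, fell in both TAM groups. Its FPKM was 1.24, 1.47 and 1.61 in cKO-labelled TAM, 1.40, 1.36 and 1.19 in control TAM, and 6.15, 6.17, 5.10 and 5.74 in resident cells. All TAM libraries lay below all resident ones, and the TAM groups overlapped. Control TAM held 22.7% of the resident mean (log2 change -1.55 ± 0.08, limma adjusted p = 5.72e-11) and cKO-labelled TAM 24.9% (-1.48 ± 0.08). Of all genes tested, 6.95% were called lower by at least 2-fold in control TAM against resident cells. Between the TAM groups the change was 0.07 ± 0.09 (limma adjusted p = 0.538). Irf8, the related factor of cDC1 and of monocytes and macrophages, moved the other way in the tumour, to 116 ± 1.96 FPKM in control TAM against 72.9 ± 2.49 in resident cells (log2 change 0.67), and fell in cKO-labelled TAM (107 ± 2.78, log2 change -0.12 against control TAM, limma adjusted p = 0.0225). Spi1, which encodes PU.1, a DNA-binding partner of both factors, rose to 302 ± 5.12 FPKM in control TAM, against 259 ± 12.1 in resident cells, and to 351 ± 8.20 in cKO-labelled TAM.

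Batf3 (ENSMUSG00000026630, chromosome 1, 191097847 to 191108945, plus strand, protein-coding), a small basic leucine zipper factor, was the most abundant of the 5 genes in every group and differed between all 3. Its FPKM was 31.2, 35.8 and 33.6 in cKO-labelled TAM, 18.1, 12.8 and 14.7 in control TAM, and 46.3, 40.0, 43.7 and 42.1 in resident cells. No library of 1 group fell in the range of another, a separation shared with Zbtb46. Control TAM held 35.3% of the resident mean (log2 change -1.45 ± 0.08, limma adjusted p = 1.84e-10). In cKO-labelled TAM the mean was 33.6 ± 2.30 FPKM, against 15.2 ± 2.66 in control TAM (log2 change 1.10 ± 0.09, limma adjusted p = 1.71e-07, higher in 3 of 3 libraries). Of the 11127 genes, 1.01% were called higher by at least 2-fold between the TAM groups. The level in cKO-labelled TAM was still 78.0% of that in resident cells (log2 change -0.35 ± 0.08, limma adjusted p = 0.00145, and -0.22 with limma adjusted p = 0.0239 when libraries were rescaled to a common total). The median gene stood at 0.13 with the common total and at 0.02 as deposited, and relative to the median gene the change was -0.37 as deposited and -0.35 rescaled.

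Genes of B and plasma cells and acinar genes had, summed, the order of Batf3 and Zbtb46. They were lowest in control TAM and highest in resident cells. The summed genes of T and NK cells had this order too, as did the cDC2 and plasmacytoid dendritic cell lists described further below. T and NK cell genes summed to 23.7 to 25.5 FPKM in cKO-labelled TAM and 18.7 to 21.9 in control TAM. In resident libraries they summed to 32.1 to 34.0, though 7 of 10 tested genes rose in control TAM against resident cells. Irf4 shared the fall against resident cells but did not pass the threshold between the TAM groups. Neutrophil, eosinophil, monocyte and epithelial genes mostly rose in control TAM against resident cells, as counted further below. Genes of B and plasma cells summed to 243 to 246 FPKM in cKO-labelled TAM, 87.4 to 95.9 in control TAM and 905 to 923 in resident libraries, over 8 genes with a row. Of these 8, 5 rose and 0 fell in cKO-labelled against control TAM, beside 20.5% and 19.1% of all genes tested. In control TAM against resident cells 0 rose and 7 fell, beside 39.0% and 38.1%. Ighm, the IgM heavy chain, was at 220 ± 2.16, 83.1 ± 4.18 and 854 ± 7.55 FPKM in cKO-labelled TAM, control TAM and resident cells. Iglc2 and Mzb1 were listed at 0 in all control TAM libraries. Acinar enzyme genes took 0.0935% to 0.0951% of all FPKM in cKO-labelled TAM, 0.0258% to 0.0275% in control TAM and 6.74% to 6.96% in resident libraries. The part of these cells in the levels of Batf3, Zbtb46 and Irf4 was not tested.

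**Figure D2:**
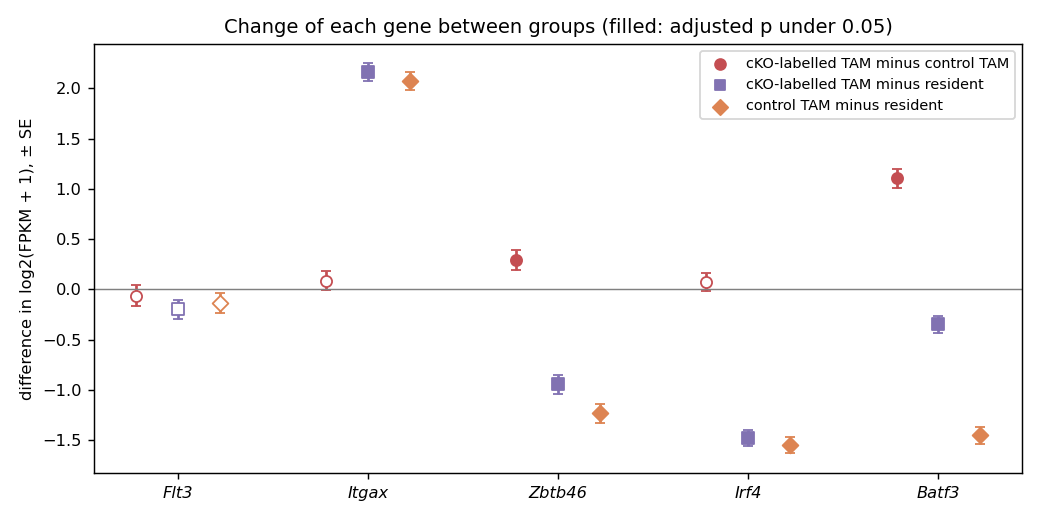
Difference in log2(FPKM + 1) between groups for each gene, with its standard error. Filled symbols passed an adjusted p of 0.05. Flt3 has open symbols only, and Batf3 is the one with a change above 1 between the TAM groups (1.10).

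BATF3 binds DNA as a dimer with a JUN protein, and its relatives BATF and BATF2 can stand in for it in dendritic cell development. Batf shared the direction of Batf3 in both comparisons by smaller steps, at 50.6 ± 0.125 FPKM in cKO-labelled TAM, 39.0 ± 3.73 in control TAM and 49.2 ± 3.90 in resident cells (log2 change 0.37 between the TAM groups, limma adjusted p = 0.000485, and -0.33 in control TAM against resident cells, limma adjusted p = 0.000204). Batf2 rose in control TAM to 38.9 ± 1.27 FPKM, against 12.0 ± 0.924 in resident cells, and did not pass the threshold between the TAM groups (40.6 ± 1.27 FPKM in cKO-labelled TAM). Among the JUN genes Junb was the most abundant, at 840 ± 47.8, 784 ± 14.2 and 371 ± 19.7 FPKM in cKO-labelled TAM, control TAM and resident cells. Jun fell in cKO-labelled TAM to 130 ± 8.23 FPKM, against 152 ± 2.10 in control TAM, and Jund rose to 48.4 ± 2.20, against 41.0 ± 3.40. Of the 10 partner genes tested, 5 rose and 3 fell between the TAM groups (4 and 3 when rescaled to a common total). In control TAM against resident cells 7 rose and 2 fell (8 and 1 rescaled). Of all genes, 20.5% rose and 19.1% fell between the TAM groups, and 39.0% and 38.1% in control TAM against resident cells. The ligands of CCR7, Ccl19 and the Ccl21 genes, were not analysed here.

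**Figure D3:**
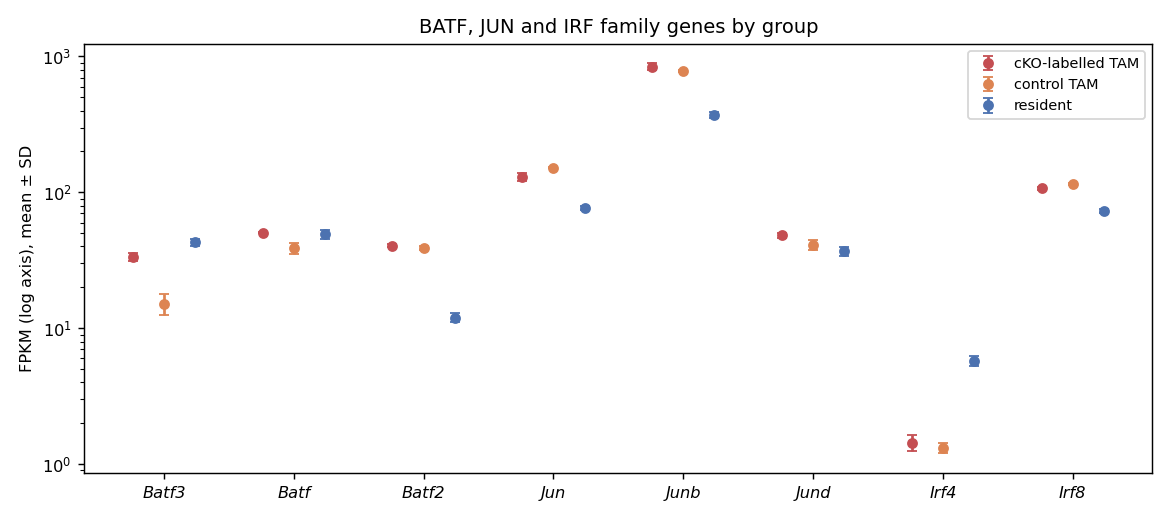
Mean FPKM ± SD of BATF, JUN and IRF family genes in the 3 groups, on a log axis. Batf3 and Batf have their lowest mean in control TAM, whereas Batf2, Jun, Junb, Jund and Irf8 are lowest in resident cells and Irf4 is highest there.

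Within a group the order of levels differed. In cKO-labelled TAM it ran Batf3, Itgax, Zbtb46, Irf4 and Flt3, where the ranges of Zbtb46 and Irf4 overlapped. In control TAM it ran Batf3, Itgax, Irf4, Zbtb46 and Flt3, where the ranges of the last 3 overlapped with their neighbours. In resident cells it ran Batf3, Irf4, Zbtb46, Flt3 and Itgax, where Flt3 and Itgax overlapped. Batf3 lay above 83.4%, 69.2% and 87.6% of all genes in the table in cKO-labelled TAM, control TAM and resident cells, and Flt3 above 12.0%, 14.2% and 18.5%.

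Other genes of dendritic cells, from lists by subset, moved in different directions. The counts of each list stand beside 20.5% of all genes higher and 19.1% lower between the TAM groups. In control TAM against resident cells the shares were 39.0% and 38.1%. In the cDC2 list, 6 of 10 tested genes rose and 2 fell in cKO-labelled against control TAM (median log2 change 1.14, against 0.01 over all genes), and 3 rose and 6 fell in control TAM against resident cells (median -1.18, against 0.00). Clec10a, a galactose-binding lectin, was at 120 ± 3.02 FPKM in cKO-labelled TAM, 26.4 ± 1.81 in control TAM and 208 ± 2.62 in resident cells. Its neighbour Mgl2 was at 154 ± 2.94, 36.0 ± 1.76 and 795 ± 3.12 FPKM, and Tmem176b, an ion channel gene of myeloid cells, at 663 ± 11.5, 314 ± 4.08 and 1053 ± 19.8. These 3 genes thus had, like Batf3, their lowest level in control TAM and their highest in resident cells. Ltb, which encodes lymphotoxin beta, ran otherwise, at 14.8 ± 0.783, 5.86 ± 0.383 and 1.71 ± 0.0220 FPKM. Sirpa and Klf4 were the 2 genes of the list that fell in cKO-labelled against control TAM. Sirpa was at 146 ± 2.63, 194 ± 1.31 and 165 ± 3.59 FPKM in the same order of groups (log2 change -0.40). Klf4 was at 8.05 ± 0.451, 9.64 ± 0.749 and 9.08 ± 0.391 FPKM (log2 change -0.23). Clec10a, Mgl2 and Tmem176b are also made by macrophages, so the list does not separate cDC2 from them.

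In the cDC1 list, 3 of 10 tested genes rose and 4 fell between the TAM groups (median log2 change 0.04, and -0.03 when rescaled to a common total). The 4 that fell were Ifi205 (log2 change -0.43), Id2 (-0.35), Tlr3 (-0.28) and Irf8 (-0.12). Cadm1, an adhesion molecule of cDC1, had the order of Batf3, at 4.07 ± 0.383 FPKM in cKO-labelled TAM, 1.43 ± 0.194 in control TAM and 5.44 ± 0.149 in resident cells (log2 change 1.06 between the TAM groups, limma adjusted p = 8.90e-08). Of the list's most abundant genes over all libraries, the lysosomal thioesterase gene Ppt1 was at 174 ± 4.39, 161 ± 2.26 and 154 ± 4.99 FPKM in cKO-labelled TAM, control TAM and resident cells, and did not pass the threshold in control TAM against resident cells (limma adjusted p = 0.110). Naaa, a lysosomal amidase, and Id2, a transcriptional repressor that cDC1 need, rose in control TAM against resident cells. Naaa was at 211 ± 3.46, 206 ± 6.16 and 77.1 ± 2.77 FPKM in cKO-labelled TAM, control TAM and resident cells, and Id2 at 135 ± 7.93, 173 ± 12.4 and 38.1 ± 2.51. In control TAM against resident cells 6 cDC1 genes rose and 3 fell (median 0.55). Xcr1 and Clec9a, the surface receptors that define cDC1, were not analysed here.

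Of the mature dendritic cell list, 14 of 26 tested genes rose and 2 fell between the TAM groups (median log2 change 0.18), or 10 and 2 when rescaled to a common total. The largest rise was that of Ccl17, a chemokine for CCR4-bearing T cells, at 8.46 ± 1.34 FPKM in cKO-labelled TAM and 1.80 ± 0.944 in control TAM, against 0.112 ± 0.0780 in resident cells. Apol7c, an apolipoprotein L gene of dendritic cells, was at 3.14 ± 0.260, 1.39 ± 0.212 and 0.586 ± 0.0873 FPKM in those groups. Cd274, which encodes PD-L1, was lower in cKO-labelled TAM (58.4 ± 1.43 FPKM) than in control TAM (68.0 ± 0.374), and stood at 3.69 ± 0.253 in resident cells. In control TAM against resident cells 15 genes rose and 6 fell (median 0.66), and Cd83, an activation marker, fell to 62.4 ± 1.15 FPKM, against 260.2 ± 6.12.

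Of 13 tested genes of the shared cDC list, 7 rose and 0 fell between the TAM groups (median log2 change 0.28). When rescaled to a common total, 6 rose and 0 fell (median 0.20). In control TAM against resident cells 8 rose and 4 fell (median 0.44). Gpr132, a receptor for lysophospholipids and lactate, was at 14.2 ± 0.908 FPKM in cKO-labelled TAM, 8.31 ± 0.850 in control TAM and 5.77 ± 0.510 in resident cells. Cd226, an adhesion receptor, was at 2.49 ± 0.290, 1.20 ± 0.166 and 7.08 ± 0.561 FPKM. Of the 6 tested genes of plasmacytoid dendritic cells, 3 rose and 0 fell between the TAM groups (1 and 1 when rescaled to a common total), and 3 rose and 3 fell in control TAM against resident cells. Siglech, a lectin of these cells, was at 0.401 ± 0.0952, 0.231 ± 0.138 and 22.2 ± 0.604 FPKM. Bst2 and Irf7, the most abundant genes of the list, rose in control TAM against resident cells. Irf7 was at 114 ± 0.459, 122 ± 2.39 and 35.9 ± 1.46 FPKM in cKO-labelled TAM, control TAM and resident cells. Bst2 was at 205 ± 3.92, 187 ± 9.39 and 163 ± 6.65 FPKM. Klk1 in the same list, at 4.67 ± 0.246, 1.43 ± 0.464 and 173 ± 6.41 FPKM, is also made by pancreatic acinar cells. Of the growth factor receptors, Csf2rb, the shared beta chain for GM-CSF, had 58.1 to 59.0 FPKM in cKO-labelled TAM, 66.0 to 68.0 in control TAM and 22.2 to 25.6 in resident cells, and of that list 2 of 5 rose and 2 fell between the TAM groups while 3 rose and 2 fell in control TAM against resident cells.

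**Figure D4:**
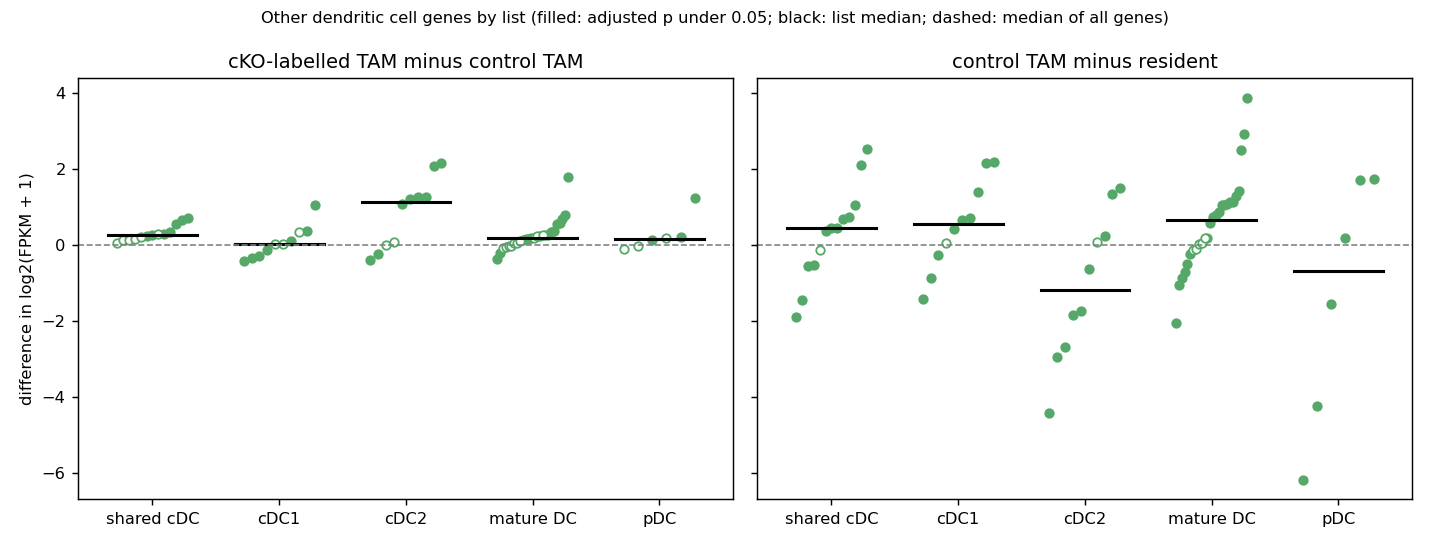
Difference in log2(FPKM + 1) of single genes in 5 dendritic cell lists, for cKO-labelled TAM minus control TAM and control TAM minus resident. Black bars are list medians and the dashed line is the median of all genes. The cDC2 median is 1.14 in the first panel and -1.18 in the second.

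Markers of the other cells that the sort could hold are given for the same libraries. In cKO-labelled against control TAM, 3 of 13 macrophage identity genes rose and 7 fell, 4 of 10 monocyte genes rose and 2 fell, 5 of 10 T and NK cell genes rose and 1 fell, 6 of 9 neutrophil genes rose and 1 fell, and 3 of 5 eosinophil genes rose. In the same comparison 22 of 23 acinar genes rose, 4 of 12 epithelial genes rose and 1 fell, and 3 of 7 fibroblast genes rose and 2 fell. Of all genes tested, 20.5% rose and 19.1% fell there. Rescaled to a common total, 3 monocyte genes rose and 3 fell, 4 and 1 of T and NK cells, 4 and 2 of neutrophils, and 3 and 1 of eosinophils. Epithelial counts were then 4 and 3 and fibroblast counts 3 and 3, while macrophage (3 and 7) and acinar (22 and 0) counts stayed. In control TAM against resident cells 4 of 13 macrophage identity genes rose and 9 fell, 8 of 10 monocyte genes rose and 1 fell, 7 of 10 T and NK cell genes rose and 3 fell, 8 of 9 neutrophil genes rose and all 5 eosinophil genes rose. All 23 acinar genes fell there, all 12 epithelial genes rose and 6 of 7 fibroblast genes rose, beside 39.0% of all genes higher and 38.1% lower. The part of these cells in the members' levels was not tested.

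The genes most like each member over the 10 libraries were taken by Pearson's r of log2(FPKM + 1). The libraries form 3 groups, so a high r mostly says that group means run alike. For Itgax these were Cytip (r = 0.998) and Ifit1 (r = 0.998), with Ifit1 at 29.3 ± 1.62 FPKM in cKO-labelled TAM, 28.5 ± 1.77 in control TAM and 7.57 ± 0.815 in resident cells. For Irf4 they were Cfd (r = 0.997) and Pcmtd2 (r = 0.997), and for Zbtb46 the immunoglobulin segment Ighj1 (r = 0.994) and Spic (r = 0.994), which encodes a factor of iron-recycling macrophages. Ighj1 was at 6.57 ± 1.91, 2.99 ± 1.32 and 86.0 ± 12.1 FPKM in cKO-labelled TAM, control TAM and resident cells. For Batf3 they were Banp (r = 0.993), a nuclear protein gene at 7.06 ± 0.185, 3.71 ± 0.244 and 8.22 ± 0.541 FPKM, and the platelet chemokine gene Ppbp (r = 0.990). Flt3 had the weakest likeness, to Tnks (r = 0.930) and Lnx2 (r = 0.928).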

How the data were processed

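Gene expression was measured in 10 libraries, prepared by SMART-Seq v4 amplification and Nextera XT per the labels' protocols, a route that keeps no strand. Values are the FPKM that the authors deposited, 1 column per library. The submitters' processing notes list STAR, edgeR and the build as mm10 and GRCm38, with no role or version. The sources used here do not state lengths, scaling or gene filter. Coordinates come from GENCODE M21 (GRCm38, 1-based) and promoters from RefSeq (GRCm38.p6, all 5 measured members matched). No exon of another gene overlaps those of the members. Symbols were missing for 316 genes, of which 312 were found by identifier.

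Whole reads were recovered from low FPKM with the longest annotated transcript as length: 85.8% to 87.1% of values under 200 reads were whole within 0.05. This held for all 10 values of Flt3, Zbtb46, Itgax and Batf3, but 3 of 10 for Irf4. Over same-group pairs of libraries, squared differences were 1.82 to 3.23 times counting noise. Each library was counted as 1 replicate. A spread above counting noise can be technical, so it does not show that libraries are separate mice.

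Genes reaching 1 FPKM in 3 or more libraries were tested (11127, with all 5 measured members) with limma 3.58.1 in R 4.3.3 on log2(FPKM + 1), which understates changes of low genes, with 3 group means, 7 residual degrees of freedom and a variance trend. The fit was checked on simulated data. Values are mean FPKM ± SD. The members, lists, tests and alternatives were chosen with earlier results of these data known. Named genes are the members, Ahr, the 2 genes most like each member, the partner, growth factor receptor and integrin lists, and per list the 2 most abundant genes and, at a mean of 1 FPKM or more, the 2 largest changes called per comparison. From these a part was picked after values were seen, and Adgre1, Iglc2, Mzb1, Sirpa, Klf4 and Tlr3 were chosen then.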

Additional observations from a re-analysis of the deposited data

Results flagged for a closer look

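Itgax in resident replicate 4 stood apart from its group, at 0.592 FPKM against 0.976 to 1.00 in the other 3 resident libraries. The gap to the nearest library was 0.937 of the group's range, above Dixon's 95% critical value for 4 samples. The value rests on 36 reads (0.415 to 0.819 FPKM, exact Poisson, 95%, counting error only), and the interval of replicate 1, at 55 reads, was 0.735 to 1.27. Chance flags about 1 in 20 groups, and 5 were examined. Without this library Itgax was still higher in control TAM than in resident cells (limma adjusted p = 4.68e-12).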

How the results depend on the processing

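Of 268 values of the 15 member changes under the alternatives, 259 kept their direction and side of the threshold or did not pass either way, 6 lost the call, 3 gained one and 0 called changes reversed. All 6 lost calls were Zbtb46 in cKO-labelled against control TAM: 0.25 (limma adjusted p = 0.0625) at a common total, 0.25 (0.0638) at a common total without acinar genes, 0.29 (0.0610) with only those groups, and 0.16 to 0.28 without control TAM replicate 1 or cKO-labelled TAM replicate 1 or 3. Over all 6 single libraries left out the change was 0.16 to 0.39. The members called there were accordingly 1 in place of 2 under those settings, 1 to 2 with libraries left out, and 1 with an FPKM of at least 5 in 3 libraries, where Flt3 and Zbtb46 were not tested. Flt3 was called lower under quantile normalization, at -0.45 (limma adjusted p = 0.000935) for cKO-labelled TAM and -0.28 (0.0204) for control TAM against resident cells, and at -0.20 (0.0328) with only cKO-labelled TAM and resident cells fitted. The cause was not tested. The common total moved the median gene of control TAM against resident cells by 0.18, and 65.9% of its calls were then higher, against 50.6%. Between the TAM groups 32.9% were then higher, against 51.8% (33.0% without acinar genes). The replicate numbers did not pair the libraries: same-numbered deviations correlated at -0.06 to 0.11, and 1, 2 and 4 of 6 libraries matched best with their own number in control TAM against resident, cKO-labelled against control TAM and cKO-labelled TAM against resident. With the number as a replicate block 8396, 4342 and 8437 genes were called in those comparisons, against 8577, 4410 and 8612, and the members called stayed at 4, 2 and 4. Depth limits Flt3 most, at 23 to 88 reads per library.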
